A study of Mus musculus with 4 samples.

Results

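The variation described here is the one that joined arrays of different genotypes. Langerhans cells, the dendritic cells of the epidermis, were profiled on 4 Affymetrix MOE430A arrays, 2 from mice made AhR-deficient through exon 2 of Ahr, the aryl hydrocarbon receptor gene (AhR ko_1 and AhR ko_2) and 2 from wild-type C57BL/6 mice (C57BL/6_1 and C57BL/6_2). The mice were untreated; their age and number are not given in the sources used here, and the deficiency is not described there as limited to any cell type. In all 4 samples the cells came from ear epidermis, were cultured for 16 hours and were sorted by viability and surface MHC class II to over 95% purity, and their RNA was amplified before labelling. The labels name the replicates biological and do not tie a sample to single or pooled mice, so the spread between them may be partly technical.

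The crossed axis set AhR ko_1 and C57BL/6_2 (side A) against AhR ko_2 and C57BL/6_1 (side B), so that each side held 1 array of each genotype and the genotype difference cancelled. All values are log2 signals, and all differences on the axis are the side A mean minus the side B mean of 2 arrays each. A gene was taken to follow the axis where both arrays of a side lay above both arrays of the other and the side means differed by at least 1, a 2-fold difference. This held for 48 of 12393 genes, or 0.387%, and for 105 of 22626 probe sets (0.464%), of which 15 had side A higher (0.0663%) and 90 side B (0.398%). Counted by gene, side A was higher for 6 (0.0484%) and side B for 42 (0.339%). These values chose the members, so they are given as a description, with no test. Without the size limit, the sides did not overlap for 2322 genes with side A higher (18.7%) and 2275 with side B higher (18.4%). In the text, side A values are given with AhR ko_1 first and C57BL/6_2 next, and side B values with AhR ko_2 first and C57BL/6_1 next.

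The arrays carried the markers of the labelled cell type. Cd207, which encodes langerin, the C-type lectin of Birbeck granules, read 11.21 and 12.06 on side A and 11.71 and 11.00 on side B, where the array medians lay between 5.60 and 5.63. Epcam, Cd24a, Csf1r, H2-Aa, Cd74, Ptprc and Ly75 read between 9.29 and 12.47 on every array, while Itgax, the gene of CD11c, read only 5.53 to 5.78. The AhR repressor gene Ahrr, which fell in AhR-deficient cells (limma adjusted p = 0.0403), differed by 0.17 on the axis, and Ido1, which encodes an enzyme of tryptophan breakdown and did not pass there (limma adjusted p = 0.104), by 0.01. Ahr itself differed by 0.29 with overlapping sides.

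Much of what follows concerns 2 kinds of housekeeping machinery. The cytosolic ribosome is built from ribosomal RNA and many proteins, whose messenger RNAs are among the most abundant of any cell. The respiratory chain passes electrons from NADH and succinate to oxygen through complexes I to IV of the inner mitochondrial membrane, and ATP synthase uses the resulting proton gradient to make ATP. Each respiratory complex joins core or catalytic subunits with accessory proteins. The third readout is the set of Affymetrix control probe sets placed at the 3' end, the middle and the 5' end of the Actb and Gapdh transcripts. In protocols that start from the poly(A) tail, a shorter RNA or cDNA product leaves the 5' probe set dimmer than the 3' one.

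Over all genes the crossed axis was like the genotype difference in median size but had a smaller share of the squared differences. The 3 contrasts that 4 arrays allow divided the sum of squared differences of 12393 genes into 44.6% for genotype, 35.6% for the crossed axis and 19.9% for the replicate number. The median absolute difference was 0.09 for both genotype and the crossed axis and 0.08 for the replicate number. At least 1 on the log2 scale with no overlap was reached by 57 genes higher and 42 lower in AhR-deficient arrays, and by only 2 genes each way for the replicate number, beside the 6 and 42 of the crossed axis.

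The axis was made of 2 differences that come from separate arrays, AhR ko_1 minus AhR ko_2 and C57BL/6_2 minus C57BL/6_1. Across the 12393 genes these had a Pearson r of 0.286 and a Spearman rho of 0.203, and 56.0% of genes had the same sign in both. With the arrays matched by replicate number the same correlation is -0.286, since only the sign of the wild-type difference turns. These are descriptions across genes, which are not independent replicates, and the pairing was chosen with such values known. The wild-type pair was the farther apart, with 41 genes higher by at least 1 in C57BL/6_2 and 78 in C57BL/6_1, against 34 in AhR ko_1 and 37 in AhR ko_2.

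**Figure D1:**
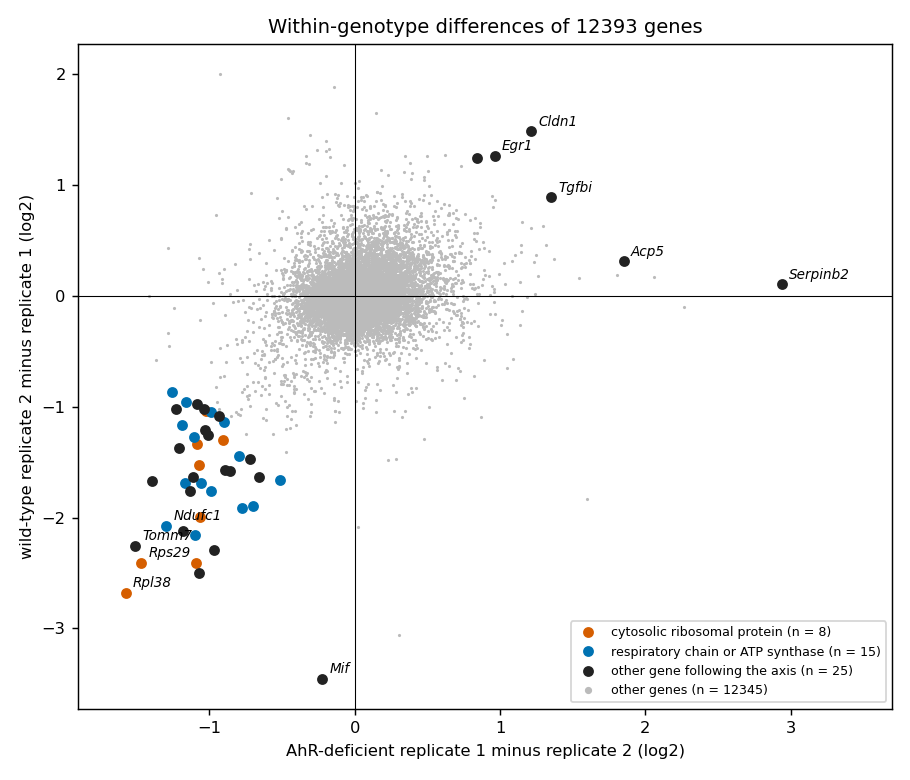
Each point is 1 of 12393 genes, with AhR ko_1 minus AhR ko_2 on the x axis and C57BL/6_2 minus C57BL/6_1 on the y axis, both in log2 units; large points are the 48 genes that follow the axis. The 42 genes higher on side B lie at the lower left, led by Rpl38 at -1.57 and -2.68, and the 6 genes higher on side A lie at the upper right or, as Serpinb2 at 2.94 and 0.11, along the x axis.

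Side B was led by ribosomal and respiratory genes. Of the 42 genes higher there, 23 belonged to the lists of cytosolic ribosomal proteins, respiratory complexes or ATP synthase. Gene span was taken as the bases from start to end of a gene in RefSeq. It was under 10000 bases for 35 of the 42 genes (83.3%), against 29.7% of all genes. The 42 genes had a median signal over all arrays of 8.40, against 5.99 for all genes. The median of the 42 genes was 7.72 and 7.78 on side A and 8.68 and 9.45 on side B. The 2 arrays of side A were thus close to each other, while within side B C57BL/6_1 was the higher for 38 of the 42 genes. Their differences ran from -1.01 to -2.13 with a median of -1.26. The wild-type pair differed more than the AhR-deficient pair for 36 of them, with medians of -1.61 and -1.07, and both pairs differed by at least 1 for 24. The count was 84 without AhR ko_2, 68 without C57BL/6_2, 46 without AhR ko_1 and 31 without C57BL/6_1. Of the 42 genes, 42, 39, 33 and 22 were kept in these settings, in the same order. The count was 17 without the probe sets that may read several transcripts, which are described with the ribosomal genes.

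The promoters of the leading genes are shown because members that move together invite a look at their upstream sequence. Each line gives the 150 bases before the transcription start in the direction of transcription, from RefSeq on GRCm38.p6: chr11:114668430-114668579 on the plus strand for Rpl38, chr12:87443746-87443895 on the plus strand for Slirp, chr3:51408956-51409105 on the minus strand for Ndufc1, and chr16:26371840-26371989 on the minus strand for Cldn1, the leading gene of side A. Capitals mark a match to the interferon response motif (a pair of GAAA repeats with any 2 bases between), and the other 3 windows hold none of the 5 kinds of motif searched.
Rpl38: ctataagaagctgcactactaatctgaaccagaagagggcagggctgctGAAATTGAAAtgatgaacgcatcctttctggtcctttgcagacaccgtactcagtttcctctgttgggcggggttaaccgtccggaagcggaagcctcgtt
Slirp: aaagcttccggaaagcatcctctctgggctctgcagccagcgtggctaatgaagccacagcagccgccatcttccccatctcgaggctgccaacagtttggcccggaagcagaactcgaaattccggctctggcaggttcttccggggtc
Ndufc1: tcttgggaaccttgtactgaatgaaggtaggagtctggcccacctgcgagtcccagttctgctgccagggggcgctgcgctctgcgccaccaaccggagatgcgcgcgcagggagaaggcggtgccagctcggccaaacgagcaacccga
Cldn1: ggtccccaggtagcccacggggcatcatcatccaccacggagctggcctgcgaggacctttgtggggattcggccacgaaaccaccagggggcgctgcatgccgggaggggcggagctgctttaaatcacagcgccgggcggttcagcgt
The motifs were searched on both strands from 250 bases before to 50 bases after the start, in 42 of the 48 genes with an entry and in 9887 measured genes in all. The hypoxia response core ACGTG was in 12 of 37 promoters of side B (32.4%) and in 26.9% of all. The CRE-like TGANNTCA was in 5 of 37 (13.5%) against 12.2%, the interferon response motif in 2 (5.41%) against 3.84%, and the AP-1 site TGACTCA, which TGANNTCA partly overlaps in form, in 1 (2.7%) against 5.64%. The NF-kB motif, searched in 2 spellings, was in 0 of 37 and in 0.708% of all. Of the 5 genes of side A with an entry, 2 held TGANNTCA, 1 held the interferon response motif and 0 held the others. A match describes the letters of the window and is not evidence of a bound site.

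Rpl38 and Rps29 had the 2 largest differences of side B. Rpl38, a protein of the large ribosomal subunit, read 8.60 and 8.58 on side A and 10.17 and 11.26 on side B, a difference of -2.13. Rps29, a zinc-binding protein of the small subunit, read 9.73 and 9.52 against 11.20 and 11.93. In both genes the side A arrays nearly coincided and C57BL/6_1 exceeded AhR ko_2 by far less than it exceeded C57BL/6_2. Rps28 read 9.55 and 9.23 against 10.65 and 11.64, and Rpl37a 9.03 and 9.12 against 10.10 and 11.12. Rps26, Rps27l, Rplp2 and Rpl41 completed the 8 ribosomal genes that follow the axis, with differences of -1.30, -1.21, -1.10 and -1.03. All 8 were chosen by their size on the axis.

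The list of 45 cytosolic ribosomal proteins ran in a gradient and did not move as a block. Its median was -0.37 on the axis, -0.35 within the AhR-deficient pair and -0.37 within the wild-type pair, where all genes had medians of 0.00, 0.01 and -0.01. Side B was higher without overlap for 28 of the 45 (62.2%, against 18.4% of all genes) and side A for 5 (11.1%, against 18.7%). At the other end of the list stood Rpl4 and Rpsa. Rpl4 read 11.15 and 11.25 on side A and 10.93 and 10.48 on side B, a difference of 0.49, and Rpsa differed by 0.36; both were picked after the values were seen. The ribosomal values also hung on the choice of probe set. Probe sets whose names end in _a_at, _s_at or _x_at have probes that match several transcripts or similar sequences. Which sequences they read here was not tested. With all of these left out, 20 ribosomal proteins remained measured and their median was -0.00, with 7 higher on side B and 3 on side A, and 0 of them followed the axis. With only _s_at and _x_at left out, 40 remained and the median was -0.17, with 21 higher on side B, 5 higher on side A and 5 following the axis.

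Complex I, the NADH dehydrogenase that is the largest enzyme of the respiratory chain, had the lowest median of the 38 lists. Its 33 measured subunits had a median of -0.63, with -0.46 within the AhR-deficient pair and -0.76 within the wild-type pair. Side B was higher without overlap for 23 (69.7%) and side A for 4 (12.1%), against 18.4% and 18.7% of all genes. Ndufc1, an accessory subunit, read 7.23 and 7.41 on side A and 8.53 and 9.48 on side B. Ndufa2, an accessory subunit with a thioredoxin-like fold, read 6.90 and 7.17 against 8.07 and 8.86. The other accessory subunits following the axis were Ndufa1, Ndufa3, Ndufa5 and Ndufa6, with differences of -1.37, -1.35, -1.29 and -1.06.

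The 2 classes of complex I subunits parted along the axis. The core subunits carry the flavin and the iron-sulfur clusters and have counterparts in bacteria, while accessory subunits surround them. This grouping was made after the values were seen. The 6 measured core subunits had a median of 0.02, from -0.43 to 0.30, and 0 of them were higher on side B without overlap while 3 were higher on side A. The 27 accessory subunits had a median of -0.72, from -1.68 to 0.26, and 23 were higher on side B. Among all genes these shares were 18.4% for side B and 18.7% for side A. Ndufs1, the largest iron-sulfur subunit, read 7.76 and 7.92 on side A and 7.52 and 7.56 on side B, and the flavin-binding Ndufv1 read 8.86 and 8.79 against 8.49 and 8.69. Without the probe sets ending in _a_at, _s_at or _x_at, 24 subunits remained and the median was -0.26, with 14 higher on side B. Gene span also ran with the axis in this list, with shorter genes toward side B. Its Spearman rho with the axis difference was 0.65 over the 33 subunits, against 0.10 over all genes. Whether subunit class or gene span had a part was not tested.

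**Figure D2:**
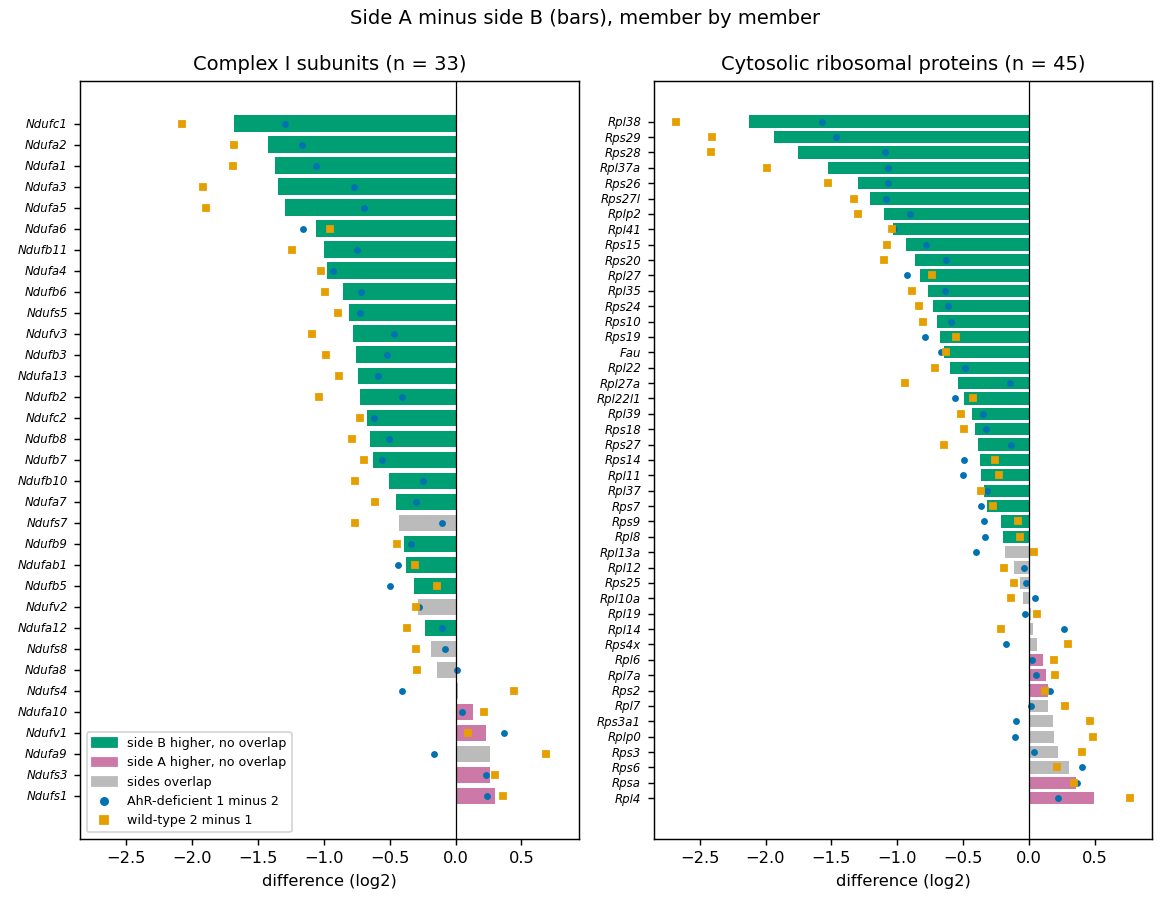
Bars give side A minus side B (log2) for each measured subunit of complex I (33) and each cytosolic ribosomal protein (45), coloured by whether the sides overlap; circles and squares give the AhR-deficient and wild-type differences that make up each bar. Both families run from large negative bars (Ndufc1 -1.68, Rpl38 -2.13) to small positive ones (Ndufs1 0.30, Rpl4 0.49).

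ATP synthase showed the same kind of gradient. Its 17 measured genes had a median of -0.42 on the axis. Side B was higher without overlap for 13 (76.5%, against 18.4% of all genes). Atp5e, the epsilon subunit of the central stalk, read 5.73 and 5.75 on side A and 6.91 on both arrays of side B, which was the most even split among the leading genes. Atp5j2, the f subunit of the membrane part, read 7.33 and 7.20 against 8.43 and 9.36. Atp5k, Atp5l and Atpif1, the last an inhibitor of the enzyme, differed by -1.09, -1.02 and -1.06. The catalytic beta subunit gene Atp5b, chosen after its values were seen, lay on the other side, with 9.86 and 9.87 on side A and 9.66 and 9.06 on side B.

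Complexes II to IV with cytochrome c had a median of -0.27 over 25 genes. Side B was higher without overlap for 15 (60.0%, against 18.4% of all genes). Cox6c, a subunit of cytochrome c oxidase, read 9.27 and 9.39 on side A and 10.37 and 10.66 on side B. Cox17, a copper chaperone for that oxidase, read 7.57 and 7.23 against 8.55 and 8.99. Uqcr11 of complex III and Cox7a2 of complex IV differed by -1.12 and -1.02. Sdha, the flavoprotein of complex II, chosen after its values were seen, differed by 0.29 with side A higher. In all, 15 of 75 measured genes of the 3 respiratory lists followed the axis, all with side B higher. Of all genes, 0.339% followed it in that direction.

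The remaining leaders of side B acted in several compartments. Tomm7, a component of the protein import channel of the outer mitochondrial membrane, read 5.64 and 5.81 on side A and 7.14 and 8.06 on side B. Slirp, which binds and stabilises mitochondrial messenger RNA, read 5.51 and 5.97 against 6.91 and 7.64. Higd1a, a hypoxia-inducible protein of the inner membrane, read 6.36 and 6.94 against 7.54 and 9.07. C57BL/6_1 was the highest array for all 3. Elob, the elongin B adaptor of ubiquitin ligases, read 7.41 and 7.80 against 8.62 and 9.17. Snrpg, a core protein of the spliceosomal snRNPs, read 7.81 and 7.77 against 8.95 and 9.52. Mt1, a metallothionein, and Atox1, a copper chaperone, were among the 4 of 42 with AhR ko_2 above C57BL/6_1, at 7.87 and 7.78 for Mt1 and 9.45 and 9.41 for Atox1.

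Other genes of side B had probe sets that disagreed or roles apart from these. Actn1, which encodes alpha-actinin, a protein that crosslinks actin filaments, read 9.69 and 9.29 on side A and 10.80 and 10.92 on side B. Son, a nuclear protein needed for splicing, differed by -1.22, yet 4 other probe sets for it had side A higher without overlap, by 0.04 to 0.47. Tmsb10, an actin-binding protein, differed by -1.79. Of its other probe sets, 1 that read 3.25 to 3.34 had side A higher by 0.06. The rest had side B higher without overlap, with differences of -0.12 to -0.62. Arpp19, an inhibitor of protein phosphatase 2A, had 2 other probe sets with side A higher without overlap, each by 0.19. Over all 29 side B genes with further probe sets, 39 of the 50 others had side B higher, 32 of them without overlap, and the median of the 50 was -0.47. Names ending in _a_at, _s_at or _x_at made up 30 of the 42 probe sets of side B members, against 26.2% of the probe sets standing for all genes.

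Mif showed how differently the pairs could contribute. This gene of macrophage migration inhibitory factor, a cytokine, read 6.88 and 6.10 on side A and 7.11 and 9.55 on side B. The wild-type pair differed by -3.45 and the AhR-deficient pair by only -0.22. Bnip3, a mitochondrial gene of the hypoxia response, and Tpi1, a glycolytic enzyme, had side differences of -1.38 and -1.03 but did not meet the rule, since the sides overlapped; both were highest in C57BL/6_1, at 10.85 and 10.58. The glycolysis list of 19 genes had a median of -0.56 within the wild-type pair and 0.07 within the AhR-deficient pair. Slc2a1, the glucose transporter GLUT1, was an exception in that list, with 9.19 and 9.21 on side A and 9.94 and 10.04 on side B. The hypoxia list of 28 genes had a median of -0.08. Side B was higher without overlap for 7 and side A for 3, against 18.4% and 18.7% of all genes.

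**Figure D3:**
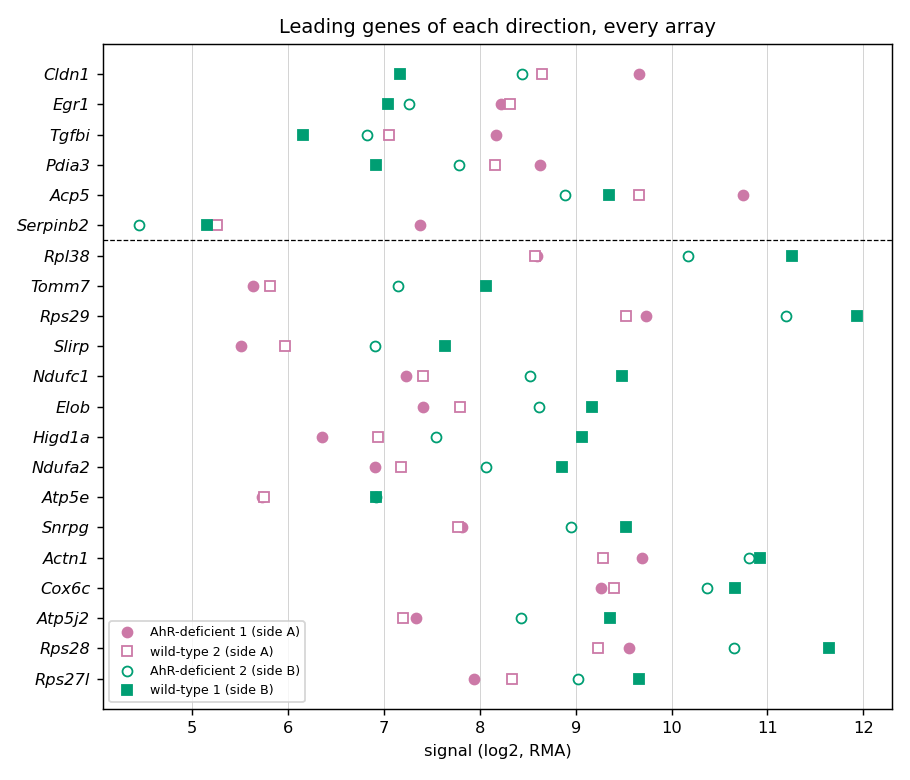
Log2 signal on every array for the 6 genes higher on side A (above the dashed line) and the 15 leading genes of side B (below it); filled and open symbols give the arrays, and colours the sides. For Rpl38 the side A arrays lie at 8.60 and 8.58 and the side B arrays at 10.17 and 11.26, while for Serpinb2 only AhR ko_1, at 7.38, stands clear.

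The 6 genes higher on side A came from no single family, and with 1 array left out the count was 17 to 62. Cldn1, which encodes the tight junction protein claudin-1, through which Langerhans cells seal their contacts with keratinocytes, read 9.66 and 8.65 on side A and 8.44 and 7.16 on side B. Egr1, an immediate early transcription factor, read 8.22 and 8.31 against 7.26 and 7.04, the cleanest separation of the 6. Tgfbi, a matrix protein induced by TGF-beta, read 8.17 and 7.05 against 6.82 and 6.16. Pdia3, the disulfide isomerase of the class I peptide-loading complex, read 8.62 and 8.16 against 7.78 and 6.91. In Cldn1, Tgfbi and Pdia3 the arrays fell in the order AhR ko_1, C57BL/6_2, AhR ko_2, C57BL/6_1. The other probe sets for Cldn1 had overlapping sides, with differences from -0.07 to 0.37, while those for Tgfbi had side A higher without overlap. Of the probe sets of the 6 genes, 3 had names ending in _a_at, _s_at or _x_at, against 26.2% for all genes. Without such probe sets, 5 genes were higher on side A, and 3 of the 6 were among them.

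The last 2 genes of side A rested on AhR ko_1. Acp5, the tartrate-resistant acid phosphatase of macrophages and osteoclasts, read 10.74 and 9.66 against 8.89 and 9.34. Serpinb2, a plasminogen activator inhibitor, read 7.38 and 5.26 against 4.44 and 5.16, so that C57BL/6_2 and C57BL/6_1 were 0.11 apart. Mmp12 and Lpl, a macrophage elastase and lipoprotein lipase, had side differences of 1.12 and 1.08 but overlapping sides, with AhR ko_1 at 7.44 and 8.87 and the other arrays at 4.81 to 5.38 and 5.42 to 6.61. Just inside the limit of 1 stood Pdia3 at 1.05 and Acp5 at 1.08 for side A, and Nop10 at -1.01 and Atp5l at -1.02 for side B. Just outside it, with sides that did not overlap, stood Lor at 0.99, Ctsa at 0.96, Ndufb11 at -0.997 and Ndufa4 at -0.98.

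Many gene lists leaned to side A by smaller amounts. Of the 38 lists, 17 had a median of at least 0.1 with both within-genotype medians above 0, and 4 had one below -0.1 with both below 0, namely the 3 respiratory lists and the cytosolic ribosomal proteins. The lists and the 48 genes overlapped in 31 genes, and 17 genes of the 48 were in no list. No list was tested, as the axis was chosen with results of these arrays known.

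Genes that serve the ribosome without being part of it lay opposite to the ribosomal proteins. Over all genes the shares without overlap were 18.7% for side A and 18.4% for side B. Of 39 ribosome biogenesis genes, 23 were higher on side A without overlap and 2 on side B, with a median of 0.20. Nop10, a protein of the H/ACA snoRNPs, was the 1 member past the limit and ran the other way, from 7.85 and 8.58 on side A to 8.78 and 9.67 on side B. Of 30 translation initiation and elongation factors, 18 were higher on side A and 2 on side B, with a median of 0.25. Eif3a, the largest subunit of initiation factor eIF3, read 10.91 and 10.95 against 10.41 and 9.82. Splicing and RNA binding proteins were similar, with 27 of 48 higher on side A, 5 on side B and a median of 0.27; the exceptions Snrpg and Son are given above. The 71 mitochondrial ribosomal protein genes had a median of -0.09, with 26 higher on side B and 8 on side A, led by Mrps21 at -0.82 and Mrpl52 at -0.77; without the probe sets that may read several transcripts the median of the remaining 58 was -0.07.

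Protein folding and degradation genes had positive medians. Their counts without overlap stand beside 18.7% of all genes for side A and 18.4% for side B. Of 27 genes in the list of cytosolic heat shock proteins, 17 were higher on side A without overlap and 0 on side B, with a median of 0.24. Despite its name the list also held the mitochondrial Hspa9, Hspd1 and Hspe1 and the transcription factor Hsf2. Dnaja2, an Hsp40 cochaperone, read 8.03 and 7.95 on side A and 7.69 and 6.69 on side B, while Hspe1, the mitochondrial cochaperonin, had a difference of -0.59 with overlapping sides. Of 25 unfolded protein response genes, 10 were higher on side A and 2 on side B, with a median of 0.20. Hspa5, the endoplasmic reticulum chaperone BiP, which was chosen after its values were seen, read 11.36 and 11.27 against 10.71 and 10.55. Of 39 proteasome genes, 14 were higher on side A and 3 on side B, with a median of 0.13, from Psmd1 of the regulatory particle at 0.67 to the core subunit Psmb3 at -0.59. Of 37 lysosome genes, 10 were higher on side A (27.0%, against 18.7% of all genes) and 4 on side B, and their median of 0.26 was 0.000273 without C57BL/6_1 and 0.0412 without AhR ko_1. Hexa, a lysosomal hexosaminidase, read 9.66 and 9.32 against 9.16 and 8.06, which placed C57BL/6_1 well below the rest.

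**Figure D4:**
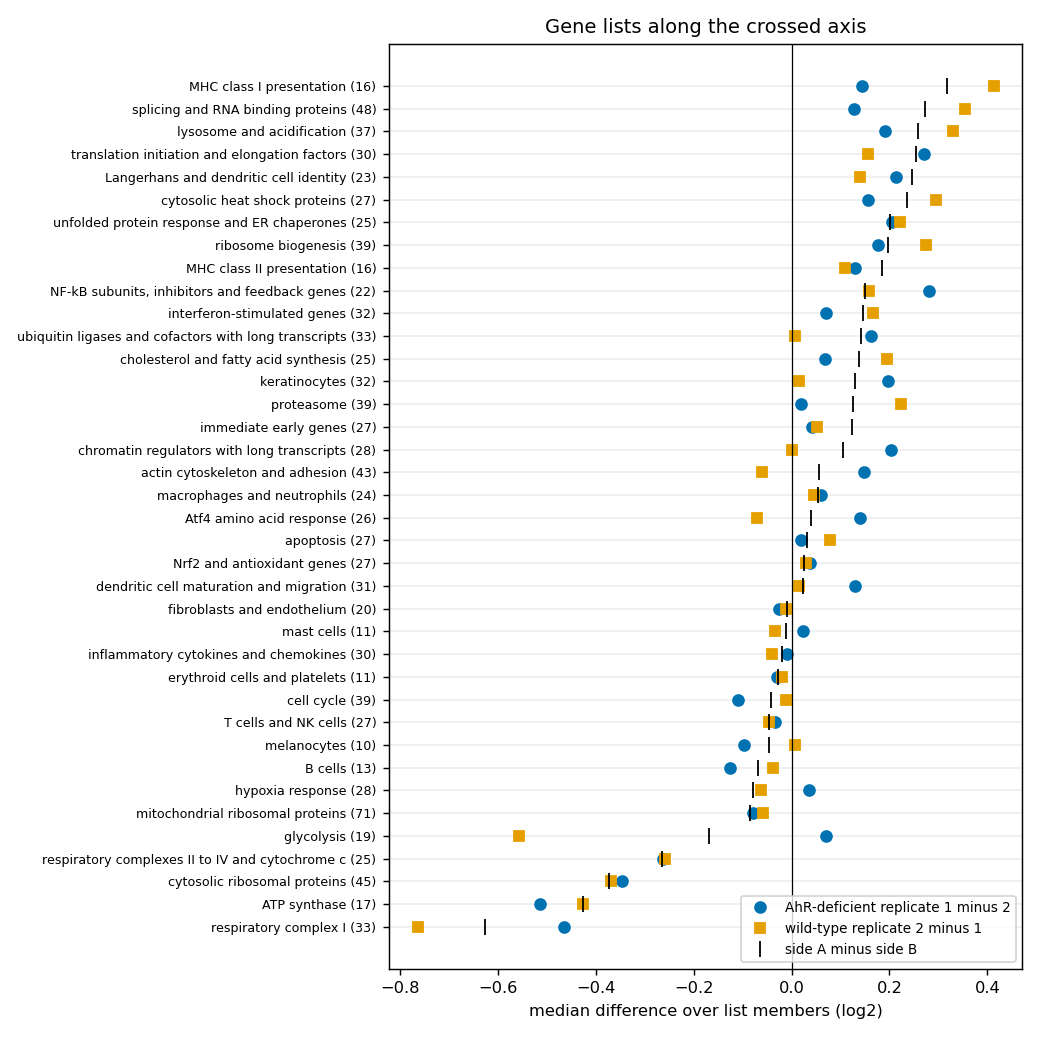
Median difference (log2) over the measured members of each of 38 gene lists, with the number of members in parentheses; the black bar is side A minus side B, the circle AhR ko_1 minus AhR ko_2 and the square C57BL/6_2 minus C57BL/6_1. Complex I lies lowest at -0.63 and MHC class I presentation highest at 0.32, while glycolysis has its 2 within-genotype medians, 0.07 and -0.56, on opposite sides of 0.

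The values for Langerhans cell and antigen presentation genes depended on single arrays. The list of 23 Langerhans and dendritic cell identity genes had a median of 0.25, with 7 higher on side A without overlap (30.4%, against 18.7% of all genes) and 0 on side B; the median was 0.13 to 0.19 with 1 array left out and 0.11 over the median probe set of each gene. Cdh1, the gene of E-cadherin, which anchors Langerhans cells among keratinocytes, read 5.27 and 4.68 on side A and 4.40 and 4.06 on side B. Cd207 was no part of this, since AhR ko_1 minus AhR ko_2 was -0.50 and C57BL/6_2 minus C57BL/6_1 was 1.06. MHC class I presentation genes had a median of 0.32, with 5 of 16 higher on side A and 0 on side B; the median was 0.0453 without C57BL/6_1 and 0.605 without AhR ko_2. Tap2, a subunit of the peptide transporter, differed by 0.72. MHC class II presentation genes had a median of 0.19, with 4 of 16 higher on side A (25%), and the median turned to -0.0201 without AhR ko_1 and -0.0479 without C57BL/6_1.

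Genes of activation were mixed. Over all genes, 18.7% were higher on side A without overlap and 18.4% on side B. NF-kB subunits, inhibitors and feedback genes had a median of 0.15, with 8 of 22 higher on side A and 2 on side B, among them Nfkbia, the gene of the inhibitor IkB-alpha, with a difference of -0.63. Inflammatory cytokines and chemokines had a median of -0.02, with 4 of 30 higher on side A and 6 on side B. Ccl5, a chemokine that attracts T cells, read 9.60 and 9.38 on side A and 10.54 and 10.33 on side B, with both pairs split alike. Dendritic cell maturation and migration genes had a median of 0.02 and split 4 to 4 among 31. For this list and the cytokine list, the counts were near or below the shares of all genes. Of 27 immediate early genes only Egr1 met the rule, and Fos, chosen after its values were seen, had AhR ko_2 at 11.14 beside AhR ko_1 at 11.29, with C57BL/6_1 at 8.36.

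Lists of markers of other cell types had small medians. Of 32 keratinocyte genes, 8 were higher on side A without overlap (25%, against 18.7% of all genes) and 1 on side B, and with dim probe sets left out 1 of 14 each way. Their median of 0.13 was -0.00617 without AhR ko_1, and the list median on each array was 5.94 and 5.34 on side A and 5.37 and 5.19 on side B. The cornified envelope gene Lor read 8.53 in AhR ko_1 and 6.72 to 6.91 in the other arrays, and Perp, a desmosomal protein, 6.62 and 5.47 against 5.41 and 4.86. Of the keratin genes that define basal cells, Krt14 read 4.60 to 5.55, below the whole-array medians of 5.60 to 5.63. Krt5 read 6.09 to 6.51, above those medians. Both genes were highest in AhR ko_1. The list of 27 T cell and NK cell genes had a median of -0.05, which turned to 0.0308 without C57BL/6_1. Side B was higher without overlap for 10 and side A for 3, against 18.4% and 18.7% of all genes. Array medians of this list were 5.25 and 5.46 on side A and 5.31 and 5.61 on side B. Its 2 largest differences ran the other way, with the surface receptor Cd6 at 6.21 and 6.02 on side A and 5.81 and 5.66 on side B, and the interleukin-7 receptor Il7r at 0.30 with overlapping sides. Mast cell, melanocyte, and fibroblast and endothelium genes had medians of -0.01, -0.05 and -0.01. The B cell list ran from -0.28, for Pax5 with side B higher without overlap, to 0.12. The macrophage and neutrophil list ran from -0.14 to 0.77. Its largest differences, Lyz1 at 0.77 and C1qa at 0.76, had overlapping sides. In sorted cells measured in bulk, fewer cells of a type and less RNA per cell cannot be told apart, and the part of these cells in the axis was not tested.

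The control values of RNA length were set beside the axis next. The Actb 3' minus 5' signal was 2.34 and 2.65 on side A and 2.61 and 3.16 on side B. C57BL/6_1 had the largest value, but AhR ko_2 lay 0.04 below C57BL/6_2, so the sides overlapped. The side means differed by -0.39, with -0.27 within the AhR-deficient pair and -0.51 within the wild-type pair (exact permutation test over the arrays, two-sided, p = 0.667). With the middle probe set in place of the 5' one, Actb read 1.25 and 1.41 on side A and 1.45 and 1.66 on side B, which did not overlap (difference -0.23, exact permutation p = 0.333). With 2 arrays against 2 the smallest p the test can give is 0.333, so no control value could pass 0.05.

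Gapdh had its largest value in the same array and was otherwise different. Its 3' minus 5' signal was 2.24 and 1.97 on side A and 2.19 and 2.60 on side B, a difference of -0.28 that came from the wild-type pair (-0.63), as the AhR-deficient pair differed by 0.06 (exact permutation p = 0.667). The pairs did not share the end of the transcript that differed. The Actb 3' signal differed by 0.28 within the AhR-deficient pair and by -0.36 within the wild-type pair, and its 5' signal by 0.54 and 0.15. The Gapdh 3' signal differed by 0.30 and -0.92, and its 5' signal by 0.25 and -0.29. Gapdh, itself a glycolytic enzyme, had no other probe set annotated with its symbol alone. The Tfrc controls read 3.39 to 3.80, below the lower quartile of every array (4.54 to 4.57), so their 3' minus 5' difference between the sides, 0.00, says nothing of RNA length. The Pcx controls, at 5.33 to 6.23, differed by 0.03 (exact permutation p = 1).

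Set array by array, the order of the controls matched that of the side B genes only in part. The median of the 42 genes was 7.72 in AhR ko_1, 7.78 in C57BL/6_2, 8.68 in AhR ko_2 and 9.45 in C57BL/6_1, and the Actb 3' minus middle value had the same order of arrays. The Actb 3' minus 5' value followed it except for AhR ko_2 and C57BL/6_2, which were 0.04 apart, where the median of the 42 genes differed by 0.90. Gapdh had its lowest value in C57BL/6_2. With 4 arrays no correlation is given, and whether RNA length had a part in the axis was not tested.

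**Figure D5:**
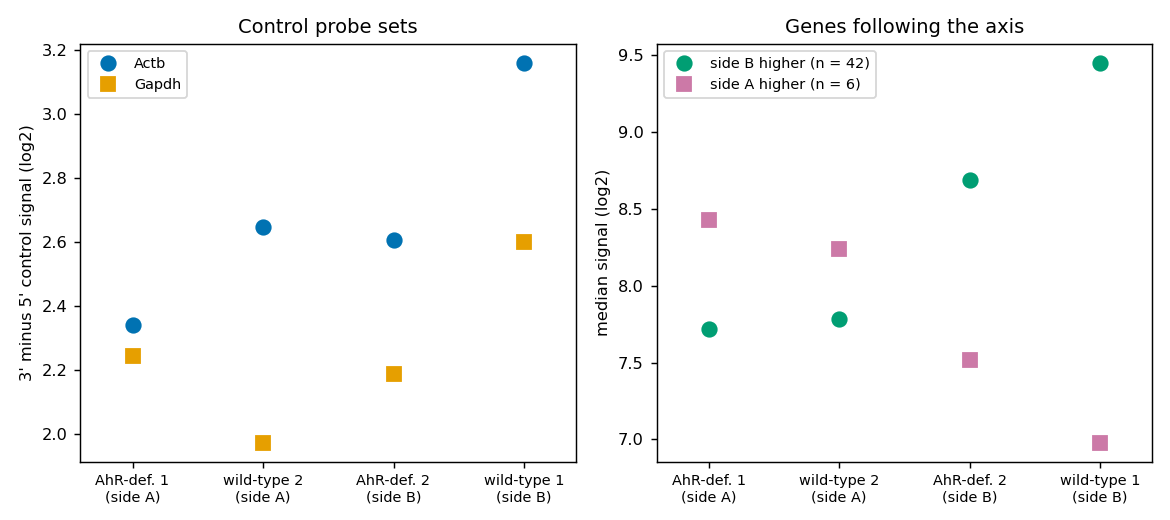
Left, 3' minus 5' control signal (log2) for Actb and Gapdh on each array; right, the median log2 signal of the 42 genes higher on side B and the 6 higher on side A. C57BL/6_1 (wild-type 1) is highest for both controls and for the side B genes, while AhR ko_2, at 8.68 for the side B genes, has control values between those of the side A arrays.

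The genotype comparison, which the rule did not use, bears on the axis through its error. It asks which transcripts differ in Langerhans cells without AhR, and limma called 0 probe sets higher (0.0%) and 4 lower (0.0177%) in AhR-deficient cells at an adjusted p under 0.05, with 760 and 598 at an unadjusted p under 0.05. Of the 48 genes that follow the axis, 0 passed, with adjusted p from 0.884 to 1 in limma. Rpl38 differed between genotypes by -0.53 (SE 1.06), Tomm7 by -0.55 (SE 0.93), Cldn1 by 1.14 (SE 0.66) and Egr1 by 0.06 (SE 0.55). Of the 42 side B genes 40 were lower in AhR-deficient arrays, with a median of -0.31, and the 6 side A genes were all higher, with a median of 0.68. All genes had a median genotype difference of 0.01. C57BL/6_1 lay above AhR ko_2 for 38 of the 42 genes, and AhR ko_1 lay above C57BL/6_2 for 5 of the 6. On the other side of each comparison, AhR ko_1 lay below C57BL/6_2 for 25 of the 42 genes. AhR ko_2 lay above C57BL/6_1 for 4 of the 6. Such counts do not show whether 1 array was outlying. What lay behind these directions was not tested, and they are not read as a genotype result. The genes were chosen for their spread within genotypes, so large SE values follow from the choice.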

How the data were processed

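The authors deposited 1 table of log2 expression values per probe set for 4 MOE430A arrays, made with affy and RMA per the submitters' processing notes, which give no versions. RMA corrects background, normalises by quantiles and summarises probes, so only relative differences remain. The deposited log2 values were used without further scaling, precision is limited by the number of arrays, and array medians lay between 5.60 and 5.63.

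The array has 22690 probe sets; the axis omitted the 64 Affymetrix controls, which served only as controls. The platform annotation gave 1 symbol to 20380 of the other 22626, several to 691 and none to 1555; 20351 matched RefSeq (GRCm38.p6) by Entrez identifier. For each of 12393 genes the brightest probe set by mean was kept. Probe sets with several symbols or none were counted, not named. No genome build is named in the sources used here.

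The named genes were the 15 in each direction with the largest lesser within-genotype difference (all 6 on side A), up to 4 members of each list that followed the axis or else its 2 largest, the genes beside the limit, and Ahr, Ahrr, Ido1, Cd207, Actb and Gapdh; other names are marked or were picked after values were seen. The members and the 38 lists were chosen with earlier results of these data known. The genotype comparison used lmFit and eBayes of limma 3.58.1 under R 4.3.3 (Benjamini-Hochberg over all probe sets, 0.05), tested on simulated data. Alternatives changed the limit, normalisation, dim or shared probe sets, blocks and arrays left out.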

Additional observations from a re-analysis of the deposited data

How the results depend on the processing

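The size limit set the counts. With 1.5-fold, 79 genes were higher on side A and 133 on side B, and with 3-fold 0 and 10. Without probe sets ending in _a_at, _s_at or _x_at, 5 genes were higher on side A and 17 on side B. With only _s_at and _x_at left out, the counts were 6 and 33. The AhR-deficient pair alone gave 34 genes for side A, and the wild-type pair alone 41 and 78. Leaving out 1 array gave 17 to 62 genes for side A and 31 to 84 for side B. Side A kept only 1 of its 6 genes without AhR ko_1, and side B kept 22 of its 42 without C57BL/6_1. List medians kept their sign for the respiratory and ribosomal lists under every setting tried. Without those shared probe sets they were -0.26 (complex I), -0.24 (complexes II to IV), -0.25 (ATP synthase) and -0.00417 (ribosomal). Quantile normalisation again gave -0.33 (II to IV) and -0.395 (ribosomal), the median over probe sets -0.30 and -0.31, and leaving out only _s_at and _x_at (chosen after seeing the data) -0.26 and -0.17. With 16 added on the linear scale, II to IV had -0.25, and with the wild-type pair alone -0.26. The AhR-deficient pair alone gave -0.51 (ATP synthase) and -0.35 (ribosomal). Leaving out 1 array gave -0.44 to -0.24 (II to IV), -0.52 to -0.33 (ATP synthase) and -0.44 to -0.30 (ribosomal).

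Small medians turned sign. With 1 array left out, MHC class II ran from -0.0479 (without C57BL/6_1; -0.0201 without AhR ko_1) to 0.522, glycolysis from -0.55 to 0.0140 (without C57BL/6_1), keratinocytes from -0.00617 (without AhR ko_1) to 0.231, and T cells and NK cells from -0.104 to 0.0308 (without C57BL/6_1; 0.000603 without AhR ko_1). The AhR-deficient pair alone gave 0.0704 for glycolysis and 0.0354 for hypoxia. Tfrc or Pcx in place of Actb gave 0.00138 or 0.0281. The cause was not tested.

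The genotype calls, 0 higher and 4 lower, became 0 and 0 with the replicate number as a block (505 and 429 at an unadjusted p under 0.05 in limma), 0 and 0 with the crossed pairing as a block (1049 and 740), and 0 and 0 with any 1 array left out (446 to 1117 and 450 to 726). Whether the numbers pair the samples is not settled: the within-genotype differences matched by number correlated at -0.309 over probe sets, while most Affymetrix controls split by number. A mean-variance trend gave 1 and 7, and leaving out dim probe sets 0 and 2. The 2 against 2 design and the number of arrays limit every comparison, and dim probe sets carry the least signal over background.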

Other observations

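The Affymetrix control probe sets, which the axis leaves out, divided the arrays in another way. Of the 64 controls, 42 had both arrays numbered 1 above both arrays numbered 2, and 2 had the reverse, while 4 had side A higher without overlap and 7 side B. Among the other 22626 probe sets, 27.0% did not overlap by number in either direction, and 37.1% did not overlap by side. Among them are 24 probe sets for Bacillus dap, lys, phe and thr transcripts, which do not occur in mouse RNA. For 20 of the 24 both number 1 arrays were the higher, and for 0 the reverse. Several probe sets read each of these transcripts, so the 24 are not separate observations. The median of the 24 was 6.16 in AhR ko_1 and 6.42 in C57BL/6_1, against 5.96 in AhR ko_2 and 5.81 in C57BL/6_2. The difference of the number means ran from 0.06 to 0.77 with a median of 0.39. The labels do not say when these transcripts were added or whether same-numbered samples were handled together.

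Vim, the gene of the intermediate filament vimentin, was chosen after its values were seen. It read 12.58 in AhR ko_1 and 12.39 in C57BL/6_2 against 11.64 in AhR ko_2 and 11.49 in C57BL/6_1, while Actn1 and Tmsb10 of the same actin and adhesion list split toward side B. The integrin genes Itgb1 and Itgb2 had differences of 0.76 and 0.71, also with side A higher without overlap. The list as a whole, with 43 genes, had a median of 0.06. It divided into 13 genes higher on side A and 8 on side B, against 18.7% and 18.4% of all genes.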
